A study of Mus musculus with 20 samples.

Results

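The genes described here are 10 acute phase and antimicrobial genes of the intestinal epithelium, Saa1, Saa2, Saa3, Lcn2, Reg3b, Reg3g, Retnlb, Pigr, Nos2 and Lypd8, out of 21456 genes tested. They were given as a list of names and matched to the gene name printed for each probe in the scanner files, control spots excluded. Of the 10, 9 matched directly, and Lypd8 was found through its RefSeq accession, since the files carry its older name 2210415F13Rik. All 10 passed the filter on dim probes, which asked for a signal well above background on at least 3 of 18 arrays. Retnlb passed on 3 arrays, all of EV organoids, Reg3g on 5, Saa3 on 10, Saa2 and Reg3b on 12 each and the other 5 genes on all 18.

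The RNA came from organoids grown from the proximal colon of male mice of about 40 days that were heterozygous for a Cre-activable BrafV600E allele (Braf+/LSL). EV organoids had received the lentiviral backbone alone, so they carried the allele without its activation. BRAF organoids had received Cre by lentivirus and were profiled 5 months after the oncogene was switched on. Selected organoids were BrafV600E organoids that had been selected for growth without stem-cell niche factors. RNA of every culture was taken after 48 h in base medium, which lacks those factors, and after 48 h in the medium the labels call ENSW. The culture medium held conditioned media with Wnt3a, R-spondin and Noggin, and EGF, and the organoids sat in Matrigel. With 3 lines of each organoid type, there were 6 groups of 3 single-colour arrays. A wild-type culture was read once in each medium and entered no test.

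Acute phase proteins are secreted when inflammatory cytokines reach a cell. The liver is their best known source, and the gut epithelium makes serum amyloid A proteins as well, chiefly when it meets microbes or interleukin-22. Antimicrobial lectins, siderophore-binding proteins and the receptor that carries secretory antibodies across the epithelium form the same first line of defence in the colon. Their genes are commonly switched on through NF-kB, STAT3 and C/EBP factors.

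Saa1, Saa2 and Saa3 lie close together on chromosome 7, and their levels followed one another across arrays, so the bases just before their transcription starts are shown. RefSeq promoter sequences (build GRCm38.p6) were found for 8 of the 10 genes. The printed windows are the 250 bases before the start, read 5′ to 3′ on the strand of the gene. Capitals mark matches, on either strand, to GGRRNNYYCC, the form of the NF-kB (kappa-B) site used here, or to TTGCNNAA, the C/EBP-type word. R stands for A or G, Y for C or T and N for any base.
Saa1 (chr7:46742981-46743230, minus strand): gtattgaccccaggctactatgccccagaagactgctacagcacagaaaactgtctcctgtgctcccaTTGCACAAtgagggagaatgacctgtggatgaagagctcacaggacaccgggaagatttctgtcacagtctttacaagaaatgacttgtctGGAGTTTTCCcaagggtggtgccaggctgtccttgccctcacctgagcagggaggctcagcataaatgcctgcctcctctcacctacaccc
Saa2 (chr7:46751583-46751832, plus strand): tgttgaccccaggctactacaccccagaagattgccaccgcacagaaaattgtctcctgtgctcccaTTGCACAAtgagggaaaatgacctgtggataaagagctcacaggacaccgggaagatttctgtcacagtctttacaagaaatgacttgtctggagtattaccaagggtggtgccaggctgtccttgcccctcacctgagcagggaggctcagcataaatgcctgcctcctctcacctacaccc
Saa3 (chr7:46715677-46715926, minus strand): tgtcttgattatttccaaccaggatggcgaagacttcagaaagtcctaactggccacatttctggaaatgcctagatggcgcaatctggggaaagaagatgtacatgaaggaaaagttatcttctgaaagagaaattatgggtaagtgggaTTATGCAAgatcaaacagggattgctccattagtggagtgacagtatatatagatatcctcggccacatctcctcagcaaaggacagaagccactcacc
The Saa1 and Saa2 windows were identical at 238 of 251 aligned positions (94.8%), and the Saa1 and Saa3 windows at 132 of 263 (50.2%). Each of the 3 windows held 1 C/EBP-type word, which 9.56% of all 32851 promoter windows of that length held. The Saa1 window alone of the 3 held a kappa-B match, 91 to 82 bases before the start, against 9.55% of all windows. The aligned bases of Saa2 differ from it at 2 positions. A match describes letters only, and a window without one says nothing about binding of the factor.

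Reg3b and Reg3g, both on chromosome 6, also moved together and are shown for the same reason. Capitals mark the kappa-B match in Reg3g and, in Reg3b, a match to TTCNNNGAA, the STAT-type word, which 7.02% of all windows held.
Reg3b (chr6:78370635-78370884, plus strand): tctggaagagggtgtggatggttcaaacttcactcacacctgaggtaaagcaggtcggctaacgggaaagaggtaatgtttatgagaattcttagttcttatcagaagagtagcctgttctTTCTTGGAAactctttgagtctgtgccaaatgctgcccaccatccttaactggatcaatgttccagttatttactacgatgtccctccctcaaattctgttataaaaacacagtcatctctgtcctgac
Reg3g (chr6:78468875-78469124, minus strand): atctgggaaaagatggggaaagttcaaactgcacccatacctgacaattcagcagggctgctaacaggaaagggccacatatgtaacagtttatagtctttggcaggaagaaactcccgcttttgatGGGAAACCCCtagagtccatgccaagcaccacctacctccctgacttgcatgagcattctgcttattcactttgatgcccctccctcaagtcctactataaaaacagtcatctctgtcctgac
These windows were identical at 175 of 254 aligned positions (68.9%), and the STAT-type word of Reg3b and the kappa-B match of Reg3g were each absent from the other window. The window of Lcn2 held 1 kappa-B match and 1 C/EBP-type word, that of Pigr held no match, and of the pair listed for Lypd8 1 held a kappa-B match.

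A level is the log2 of the processed signal with the array's 75th percentile set to 0, so 1 unit is a 2-fold step. Over the 20 arrays, 59.6% to 65.2% of spots were well above background, and arrays of a group correlated at r = 0.944 to 0.988 across genes, which are not independent replicates. EV arrays shared no slide with BRAF or selected arrays, and in comparisons with EV the type cannot be told apart from the slide. Selected line 3 and BRAF line 1 shared a slide, and both media of a culture always did. The 10 epithelial markers chosen for the check, Epcam and Cdh1 among them, were well above background on 9 or 10 of 10 probes in every array. Their summed linear signal, in multiples of the 75th percentile, was nonetheless lower in selected organoids. In base medium it was 1919 to 2265 in EV, 1303 to 2444 in BRAF and 497 to 1375 in selected organoids. In ENSW medium it was 1350 to 1436, 1182 to 1449 and 523 to 986. Of the 13 immune markers on the array 7 to 9 were well above background, and Cd3g, Cpa3 and Jchain were so on no array. Of the 11 stromal and endothelial markers 4 to 6 were, with Cdh5, Col1a1 and Dcn on no array.

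Serum amyloid A genes were high in EV organoids and lower in BRAF organoids, and in base medium they were lower still in selected organoids. Saa1 encodes an acute phase apolipoprotein; its probe lies at chr7:53996070-53996129 (mm9). In ENSW medium the 3 EV lines had Saa1 levels of 0.998, 1.19 and 2.32, the BRAF lines -1.33, -1.26 and -0.60, and the selected lines -1.37, -1.10 and -1.57. EV lines did not overlap with the other types, whereas BRAF and selected lines did overlap. In base medium the EV lines reached 4.70, 5.79 and 5.999 and the BRAF lines 0.71, 0.61 and 1.496, while the selected lines stayed at -1.19, -1.54 and -1.59. The 3 types were then fully apart. The wild-type arrays, at 1.11 in ENSW and 5.55 in base medium, lay within the range of the EV lines.

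Saa1 was 5.92-fold lower in BRAF than in EV organoids in ENSW medium (log2 difference -2.57, SE 0.39, limma adjusted p = 0.0023) and 23.6-fold lower in base medium (-4.56, SE 0.39, adjusted p = 8.16e-06). Selected organoids were 7.21-fold below EV in ENSW (-2.85, adjusted p = 0.000508) and 122-fold below it in base medium (-6.94, adjusted p = 6.67e-08). Selected against BRAF gave -0.28 (SE 0.39, adjusted p = 0.877) in ENSW medium and -2.38 (adjusted p = 0.00231) in base medium. On the shared slide, selected line 3 minus BRAF line 1 gave -0.24 and -2.29. In bulk RNA, fewer cells that make a transcript and less of it in each cell cannot be told apart.

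Saa2, whose promoter window is so like that of Saa1, fell to background in selected organoids. Its probe (chr7:54009622-54009681, mm9) read 0.018, 0.48 and 1.66 in the EV lines in ENSW medium and 4.22, 5.38 and 5.59 in base medium. BRAF lines read -5.12, -4.99 and -2.64 in ENSW medium and 0.0047, -0.23 and 0.96 in base medium. All 6 selected arrays lay between -7.84 and -7.34 and were not well above background. The order EV, BRAF, selected thus held in both media without overlap. BRAF organoids were 31.3-fold below EV in ENSW medium (-4.97, SE 0.60, adjusted p = 0.000668) and 28.2-fold below it in base medium (-4.82, adjusted p = 0.000114).

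Since Saa2 was at background in selected organoids, only bounds can be given there. A bound sets the brighter group's mean against the higher, per array, of the dim probe's signal and the lowest signal called well above background, and holds for this processing only. Selected organoids had at least 234-fold less Saa2 signal than EV in ENSW medium (measured means -7.51 and 0.72, adjusted p = 3.57e-06) and at least 5082-fold less in base medium (-7.62 and 5.06, adjusted p = 2.08e-08). Against BRAF the bound was at least 7.47-fold in ENSW medium (adjusted p = 0.026) and at least 180-fold in base medium (adjusted p = 4.73e-06). The ENSW call between selected and BRAF was lost with normexp background correction (difference -0.73 in place of -3.26, adjusted p = 0.699), with the deposited values (-0.998, adjusted p = 0.486) and on leaving out any 1 of the 3 selected ENSW arrays (adjusted p up to 0.0941).

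Saa3, a serum amyloid A made outside the liver, was high in EV organoids and lower in the other types. EV lines read 0.28, -2.01 and -0.23 in ENSW medium and 1.71, 1.16 and 1.53 in base medium. BRAF lines read -6.64, -5.63 and -4.09 in ENSW medium, where only line 3 was well above background, and -1.63, -4.45 and -2.12 in base medium. Selected arrays lay between -7.66 and -6.03, none well above background. BRAF and EV lines did not overlap in either medium, whereas BRAF line 1 lay below selected line 2 in ENSW medium.

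Saa3 was lower in BRAF than in EV organoids by a log2 difference of -4.80 in ENSW medium (SE 0.76, adjusted p = 0.00317) and of -4.20, or 18.3-fold, in base medium (adjusted p = 0.00113). Selected organoids were at least 66.8-fold below EV in ENSW medium (adjusted p = 0.000234) and at least 419-fold in base medium (adjusted p = 1.37e-06). Against BRAF in base medium the bound was at least 22.9-fold (adjusted p = 0.00214), a call that normexp ended (difference -1.07 in place of -4.74, adjusted p = 0.0717). In ENSW medium selected minus BRAF was -1.45 (SE 0.76, adjusted p = 0.547). For Saa2 and Saa3 the size of a difference that involves dim probes depended on the background correction. With normexp, selected minus EV in base medium was -7.72 for Saa2 and -3.99 for Saa3, against -12.68 and -8.94 here, and BRAF minus EV in ENSW medium was -2.79 and -1.69, all still called.

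**Figure D1:**
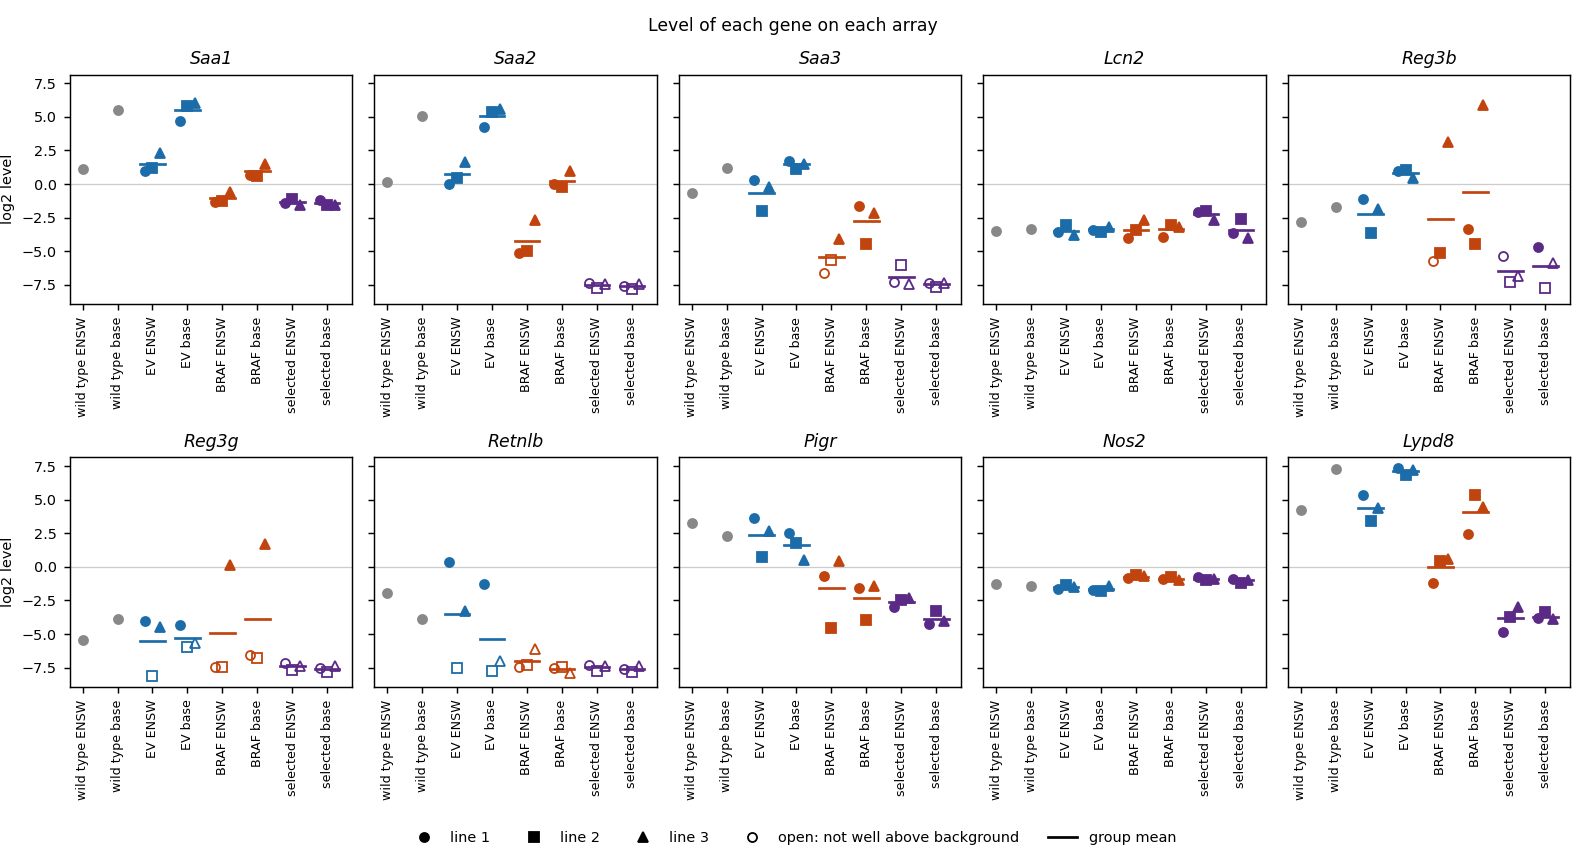
Level of each gene on every array, as log2 signal with the 75th percentile of the array set to 0, by organoid type and medium; filled markers are well above background, open ones are not, and bars are means of 3 lines. Saa1, Saa2, Saa3 and Lypd8 descend in base medium from EV through BRAF to selected organoids, Reg3b and Reg3g are high in both arrays of BRAF line 3 alone among BRAF lines, and Lcn2 stays between -4.05 and -2.0.

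Lypd8 encodes a secreted glycoprotein of colonocytes that binds flagella and keeps bacteria away from the epithelium. It read 5.37, 3.42 and 4.39 in the EV lines in ENSW medium and 7.38, 6.86 and 7.24 in base medium. BRAF lines read -1.18, 0.47 and 0.58 in ENSW and 2.44, 5.33 and 4.46 in base medium. Selected lines read -4.81, -3.72 and -2.95 in ENSW and -3.84, -3.37 and -3.88 in base medium, and all 18 arrays were well above background. The 3 types did not overlap in either medium.

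Lypd8 was 21.6-fold lower in BRAF than in EV organoids in ENSW medium (-4.44, SE 0.71, adjusted p = 0.0032) and 8.48-fold lower in base medium (-3.08, adjusted p = 0.00508). Selected organoids were 298-fold below EV in ENSW medium (-8.22, adjusted p = 1.23e-05) and 1853-fold below it in base medium (-10.86, adjusted p = 1.75e-07). Against BRAF they were 13.8-fold lower in ENSW (-3.78, adjusted p = 0.027) and 219-fold lower in base medium (-7.77, adjusted p = 2.09e-05). The ENSW difference from BRAF was -2.05 with slide as a block (adjusted p = 0.163) and -2.19 with normexp (adjusted p = 0.157). It also lost its call without any 1 of the selected ENSW arrays or without BRAF line 2 or line 3 in ENSW (adjusted p up to 0.112), and without both arrays of EV line 1 or 3 (0.0506 and 0.0665). On the shared slide it was -1.77 in ENSW and -6.32 in base medium.

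Pigr encodes the polymeric immunoglobulin receptor, which carries IgA across the epithelium. It is read here by a probe on chromosome 1 (chr1:132748041-132748100, mm9), where the gene lies. EV lines read 3.61, 0.75 and 2.66 in ENSW medium and 2.50, 1.80 and 0.50 in base medium. BRAF lines read -0.69, -4.56 and 0.47, then -1.55, -3.92 and -1.44. Selected lines read -3.01, -2.43 and -2.30, then -4.24, -3.32 and -4.04. EV lines lay above the other types in both media, and line 2 was the lowest BRAF line in each medium.

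Pigr was 15.3-fold lower in BRAF than in EV organoids in ENSW medium (-3.93, SE 1.09, adjusted p = 0.0477) and 15.0-fold lower in base medium (-3.90, adjusted p = 0.0152). The ENSW call lies close to the threshold and was lost in 23 of the other settings, with adjusted p up to 0.215 when both arrays of EV line 1 were left out, and without BRAF line 2 in ENSW the difference was -2.45 (adjusted p = 0.175). The base-medium call was lost without EV line 1 (-3.45, adjusted p = 0.0590) or BRAF line 2 (-3.09, adjusted p = 0.0666). Selected organoids were 30.2-fold below EV in ENSW (-4.92, adjusted p = 0.0109, and 0.0567 without EV line 1) and 44.2-fold below it in base medium (-5.47, adjusted p = 0.00087). Selected and BRAF organoids differed by -0.98 and -1.56, with SE 1.09 and adjusted p = 0.832 and 0.407.

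A second probe named Pigr was brighter but lay on another chromosome (chr13:108165151-108165210, mm9), and the transcripts listed for it belong to Pigr and Rhox8. Its 60 bases are purines throughout, in a repeat, so the first 30 bases of both probes are shown.
Pigr probe on chromosome 1: tcatgattttcagatgagaagagatgtttc
Repeat probe on chromosome 13: gaggaggaggaggagaaggagaaggagaag
The repeat probe read 4.31 to 5.43 in EV organoids and 3.08 to 3.95 in BRAF and selected organoids. Its differences from EV were smaller than those of the chromosome 1 probe, at -1.08 and -1.53 in BRAF organoids (adjusted p = 0.0296 and 0.00081) and -1.12 and -1.81 in selected organoids (adjusted p = 0.0152 and 7.15e-05), in ENSW and base medium. What the repeat probe binds was not tested.

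Reg3b and Reg3g encode secreted C-type lectins, of which Reg3g kills Gram-positive bacteria. Here 1 culture stood apart. BRAF line 3 read 3.15 for Reg3b in ENSW and 5.89 in base medium, whereas BRAF lines 1 and 2 read -5.75 and -5.16 in ENSW and -3.32 and -4.45 in base medium. Reg3g in BRAF line 3 read 0.15 and 1.72, and the other BRAF arrays lay between -7.47 and -6.57, none well above background. Both of its arrays were on a slide that held no other culture, so culture and slide cannot be told apart.

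EV lines read -1.11, -3.62 and -1.88 for Reg3b in ENSW medium and 0.97, 1.06 and 0.48 in base medium, all below BRAF line 3 in the same medium and above the other BRAF lines. Selected lines read -5.38, -7.27 and -6.87 in ENSW, none well above background, and -4.69, -7.70 and -5.84 in base medium, where line 1 was well above background. BRAF minus EV was -0.38 in ENSW medium (SE 2.43, adjusted p = 0.949) and -1.46 in base medium (adjusted p = 0.685). Without both arrays of BRAF line 3 the base-medium difference was -4.72 and was called (adjusted p = 0.00231), so this culture decides it. Selected minus EV in base medium was -6.91 (SE 2.43, adjusted p = 0.0297), a call lost with normexp (-3.31, adjusted p = 0.119), with the deposited values (-4.32, adjusted p = 0.0866) and without any EV base array or selected line 2 or 3 in base medium (adjusted p up to 0.0907). In ENSW medium selected minus EV reached the threshold only without both arrays of BRAF line 3 (-4.30, adjusted p = 0.00582, against 0.251 with all arrays).

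Reg3g read -3.99 and -4.50 in EV lines 1 and 3 in ENSW medium and -4.32 in EV line 1 in base medium, the EV arrays on which it was well above background. The wild-type arrays read -5.43 and -3.86. Selected arrays lay between -7.82 and -7.13, none well above background. No Reg3g difference was called (adjusted p from 0.309 to 0.905 in the 6 comparisons between types), with SE 2.16 set by BRAF line 3. Selected minus EV in base medium was called only without both arrays of that culture (-2.26, adjusted p = 0.0403).

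Retnlb, the goblet cell product RELM-beta, was well above background on 3 EV arrays and on both wild-type arrays. EV line 1 read 0.37 in ENSW and -1.27 in base medium, EV line 3 read -3.31 and -7.00, and EV line 2 read -7.52 and -7.77. Wild-type organoids read -1.98 and -3.87. BRAF and selected arrays lay between -7.91 and -6.13, none well above background. No comparison between types was called (adjusted p from 0.123 to 0.994). Since it passed the filter through EV arrays alone, its differences from EV are given no weight here.

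**Figure D2:**
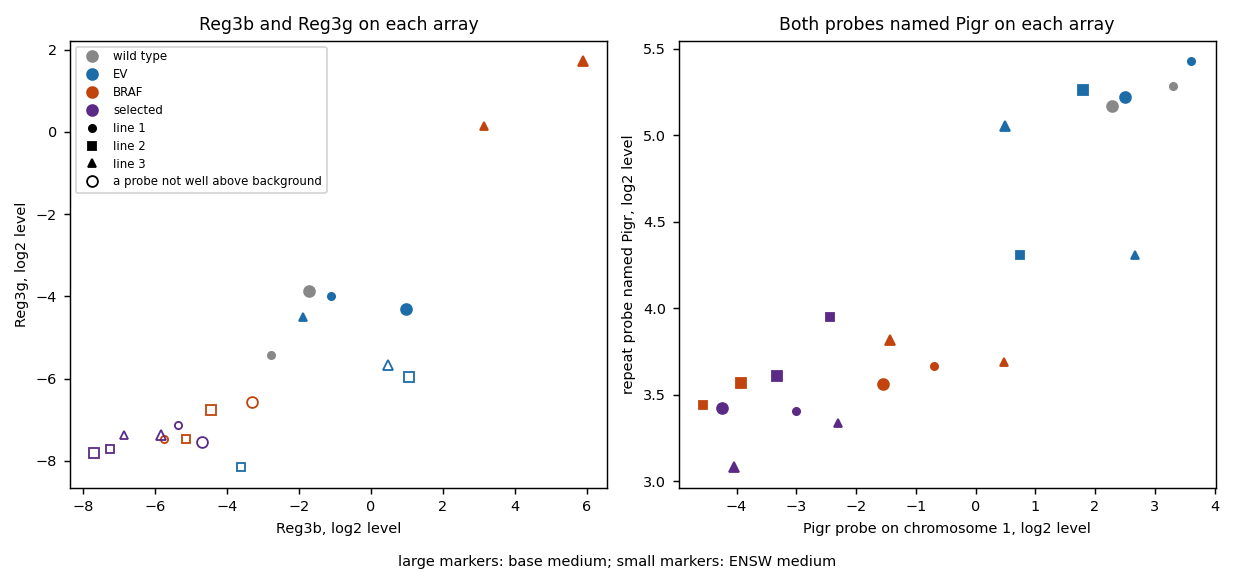
Left, the log2 level of Reg3g against that of Reg3b on each of 20 arrays; right, the repeat probe named Pigr against the chromosome 1 probe on each array, both in log2. Both arrays of BRAF line 3 stand apart on the left at Reg3b levels of 3.15 and 5.89, and on the right EV and wild-type arrays lie above the others, over a narrower range on the repeat probe.

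Lcn2 encodes lipocalin 2, which binds bacterial siderophores and withholds iron. Its 20 arrays lay between -4.05 and -2.0. EV lines read -3.58, -3.07 and -3.82 in ENSW medium, BRAF lines -4.05, -3.45 and -2.68 and selected lines -2.08, -2.0 and -2.65. Selected organoids were 2.38-fold above EV in ENSW medium (1.25, SE 0.39), with an adjusted p of 0.0486 that passed the threshold by little and was above it in 23 of the other settings, up to 0.175 without both arrays of EV line 3. In base medium the selected lines read -3.61, -2.59 and -4.01 and overlapped with EV lines at -3.42, -3.54 and -3.18 (difference -0.025, adjusted p = 0.965). BRAF minus EV was 0.10 in ENSW medium (SE 0.39, adjusted p = 0.916).

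Nos2, the inducible nitric oxide synthase, was the member that rose in both media. EV lines read -1.68, -1.34 and -1.50 in ENSW and -1.75, -1.77 and -1.43 in base medium. BRAF lines read -0.84, -0.64 and -0.67, then -0.92, -0.77 and -0.96. Selected lines read -0.73, -0.99 and -0.91, then -0.86, -1.16 and -0.98. Every BRAF and selected array lay above every EV array, by small steps. Nos2 was 1.73-fold higher in BRAF than in EV organoids in ENSW medium (0.79, SE 0.14, adjusted p = 0.00639) and 1.70-fold higher in base medium (0.77, adjusted p = 0.00131). The ENSW call was lost without both arrays of EV line 1 (0.70, adjusted p = 0.0611).

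In selected organoids Nos2 was 1.55-fold higher than in EV in ENSW medium (0.63, adjusted p = 0.0123, and 0.0656 without EV line 1 in ENSW) and 1.57-fold higher in base medium (0.65, adjusted p = 0.00184). With normexp the 4 differences were 0.40 to 0.59. Rises of like size were also called for markers of other cell types. In BRAF organoids in ENSW medium the B cell gene Cd79a rose by 0.92 (adjusted p = 0.0131), the macrophage receptor Csf1r by 0.61 (adjusted p = 0.0439) and the endothelial receptor Kdr by 0.70 (adjusted p = 0.0121). These calls were lost in 3, 22 and 6 of the other settings. Over the lists, 2 of 8 tested immune markers rose and none fell, and of 6 tested stromal and endothelial markers 1 rose and 1 fell. Of all genes 4.81% rose and 1.41% fell in this comparison. The summed linear signal of the immune list was 34.8 to 40.2 in EV and 50.9 to 57.9 in BRAF organoids in ENSW medium, and that of the stromal and endothelial list 3.14 to 3.49 and 4.69 to 5.45. Nos2 also rose in base medium. There the immune sums were 55.9 to 75.8 in EV, 51.6 to 83.5 in BRAF and 42.6 to 57.0 in selected organoids. The stromal and endothelial sums were 3.34 to 3.77, 4.57 to 6.41 and 4.18 to 4.64. Of the 8 immune markers 2 rose and 1 fell in BRAF against EV organoids in base medium. Of the 6 stromal and endothelial markers 1 rose and 1 fell there. In that comparison 17.9% of all genes rose and 13.1% fell, so both counts are near the share of all genes. Whether such other cell types were present, and any part of theirs in the Nos2 result, was not tested.

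Counted together, 6 of the 10 genes were called between BRAF and EV in ENSW medium, 5 lower and 1 higher. Of all genes 6.21% were called, 1.41% lower and 4.81% higher. The members had a median difference of -3.03 against 0.062 over all genes. In base medium it was again 5 lower and 1 higher, against 31% of all genes (13.1% lower, 17.9% higher), with medians of -2.68 and 0.032. Between selected and EV organoids 7 were called in ENSW medium, 5 lower and 2 higher (13.8% of all genes, 5.14% lower and 8.71% higher, medians -4.14 and 0.11). In base medium 6 were lower and 1 higher (48.2% of all genes, 23.2% lower and 25% higher, medians -6.19 and 0.020). Between selected and BRAF organoids 2 were called in ENSW medium, both lower (0.606% of all genes, 0.452% lower and 0.154% higher, medians -1.22 and 0.0083), and 4 in base medium, all lower (9.75% of all genes, 5.14% lower and 4.62% higher, medians -3.04 and -0.027). Comparisons with EV share the EV arrays, so they do not repeat one another independently. Retnlb, which passed the filter through EV arrays alone, was among the middle values that set some of these medians. It stood at -3.50 for BRAF minus EV in ENSW medium and at -2.27 for that comparison in base medium. For selected minus EV in ENSW medium it stood at -3.99. The medians of these comparisons therefore rest partly on a gene at background outside EV organoids, and are descriptive only.

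**Figure D3:**
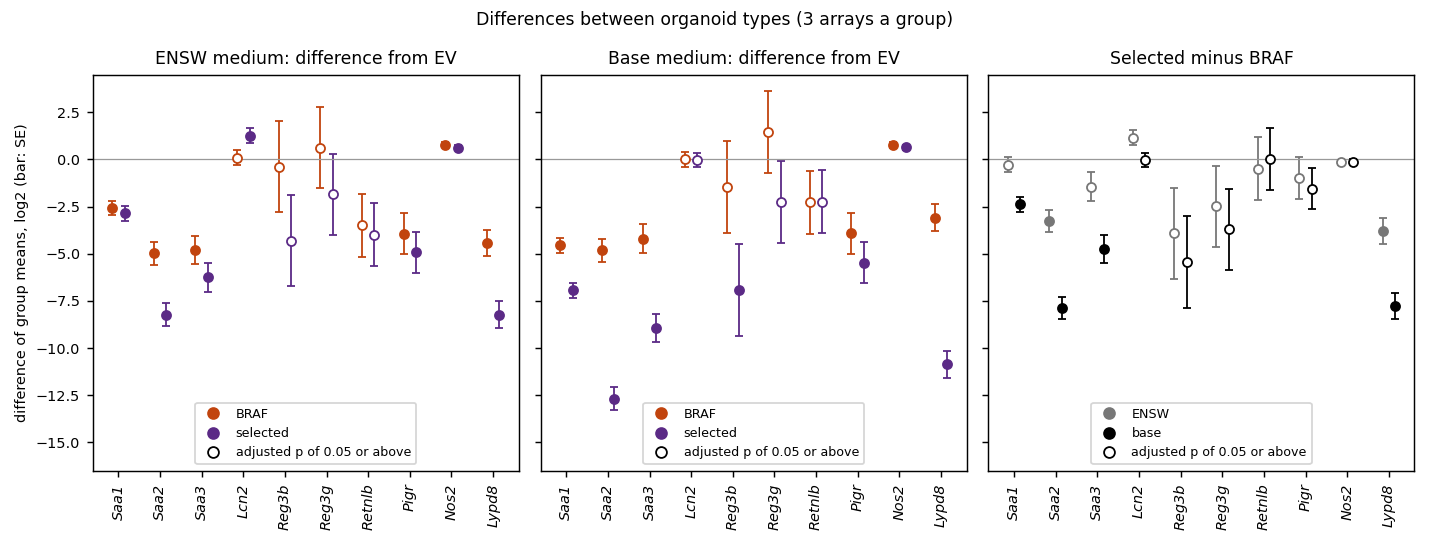
Differences between organoid types for each gene as log2 with the standard error of the limma fit, 3 arrays a group; filled points have an adjusted p under 0.05 over all 21456 genes. Saa1, Saa2, Saa3, Pigr and Lypd8 lie below EV and Nos2 above it in both BRAF and selected organoids, and the bars of Reg3b and Reg3g are wide.

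In EV organoids the serum amyloid A genes and Lypd8 rose in the medium without niche factors. Saa1 was 15.9-fold higher in base than in ENSW medium (3.995, SE 0.39, adjusted p = 9.3e-06), by 3.71, 4.60 and 3.68 in the 3 cultures. Saa2 rose 20.3-fold (4.34, SE 0.60, adjusted p = 7.97e-05), by 4.2003, 4.90 and 3.93. Lypd8 rose 6.80-fold (2.77, SE 0.71, adjusted p = 0.00609), by 2.003, 3.44 and 2.86, and its call was lost without both arrays of EV line 3 (2.72, adjusted p = 0.0534). Saa3 rose 4.33-fold (2.11, SE 0.76), by 1.42, 3.17 and 1.75, with an adjusted p of 0.0378. Its call was lost on leaving out any EV array except line 1 in ENSW, with adjusted p up to 0.171 without line 2 in ENSW. Reg3b was also higher in base medium in all 3 EV cultures, by 2.09, 4.68 and 2.36 (3.04, SE 2.43, adjusted p = 0.344), and was called with slide as a fixed block (adjusted p = 0.0126) and without both arrays of BRAF line 3 (0.0085). The other 4 genes were the members called, against 42.1% of all genes (23.4% higher, 18.8% lower), with a median of 1.17 over the 10 genes and 0.19 over all genes.

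In BRAF organoids Saa1 rose 4.01-fold in base medium (2.004, SE 0.39, adjusted p = 0.0239), by 2.04, 1.87 and 2.10 in the 3 cultures. Saa2 rose 22.5-fold (4.49, SE 0.60, adjusted p = 0.00683), by 5.12, 4.76 and 3.60, and by 2.28 under normexp. Lypd8 rose 17.4-fold (4.12, adjusted p = 0.0158), by 3.62, 4.86 and 3.88. These 3 members were called, against 1.67% of all genes (1.08% higher, 0.592% lower), with medians of 1.51 and 0.061. Without both arrays of BRAF line 2, none of the 3 was called (adjusted p = 0.282 for Saa1, 0.104 for Saa2 and 0.211 for Lypd8), although the differences stayed between 2.07 and 4.36. Saa1 also lost its call without BRAF line 1 or 2 in ENSW or line 2 or 3 in base medium (adjusted p up to 0.121), and Lypd8 without line 2 in either medium or line 3 in base medium (up to 0.0889). Without both arrays of BRAF line 3, Saa1 and Lypd8 gave adjusted p = 0.147 and 0.124. Saa3 gave 2.72 (adjusted p = 0.085), by 5.003, 1.18 and 1.98, and was called with the culture as a block (adjusted p = 0.00896).

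In selected organoids none of the 10 genes was called between media, against 0.00466% of all genes, which is 1 gene, and medians were -0.12 and -0.00077. Saa1 moved by 0.18, -0.44 and -0.014 in the 3 cultures and Lypd8 by 0.97, 0.35 and -0.93, so cultures went in different directions. Lcn2 was lower in base medium in all 3 cultures, by -1.53, -0.59 and -1.37, and Pigr by -1.23, -0.89 and -1.74. Of the 10 genes, Lcn2 alone had an unadjusted limma p under 0.05.

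**Figure D4:**
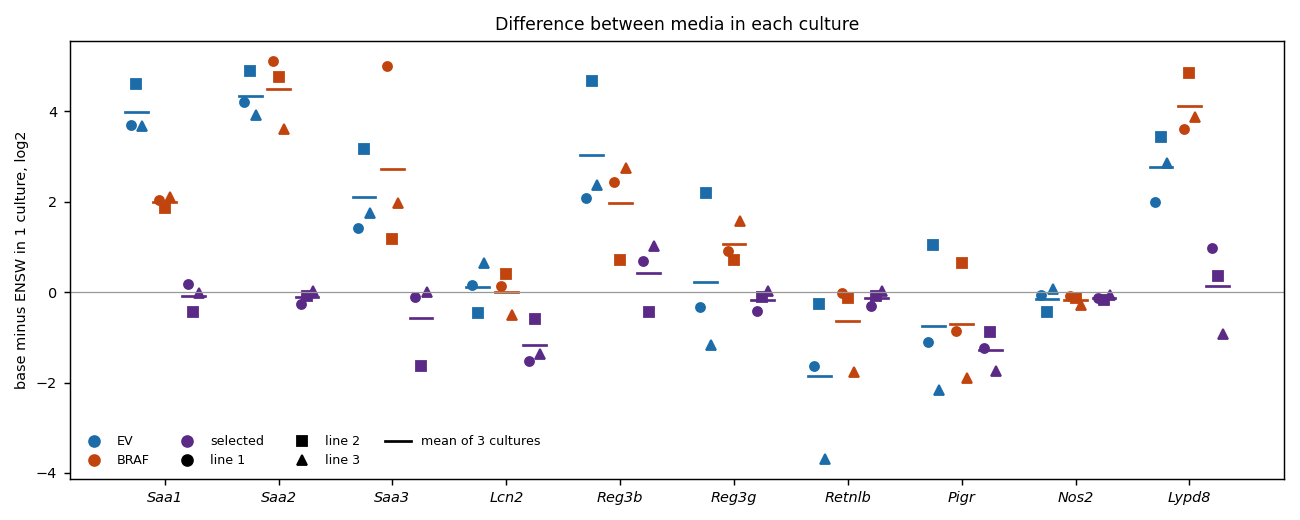
Base minus ENSW level, in log2, within each of 9 cultures for each gene; markers are lines 1 to 3, colours organoid types and bars means of 3 cultures. EV and BRAF cultures lie above 0 for Saa1, Saa2, Saa3 and Lypd8, and selected cultures lie around 0 for these genes.

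The difference between those responses was tested as an interaction. The Saa1 response was smaller in selected than in EV organoids, with a difference of -4.09 (SE 0.55, adjusted p = 0.000407) and the Saa2 response differed by -4.45 (SE 0.85, adjusted p = 0.00224). These 2 members were called, both lower, against 24.2% of all genes, 10.4% lower and 13.8% higher. With selected and BRAF lines of one number as a block Lypd8 was called too (adjusted p = 0.0117). With the culture as a block 5 members were called, adding Saa3 (adjusted p = 0.0204), Lcn2 (0.0155) and Lypd8 (0.00507). Since Saa2 was at background in selected organoids, its value there is limited by the background. Between BRAF and EV organoids no member was called, against 3.5% of all genes (2.95% higher, 0.55% lower). Saa1 was the 1 member with an unadjusted limma p under 0.05, with a difference of -1.99 (SE 0.55, adjusted p = 0.0579, 0.0291 with selected and BRAF lines of one number as a block and 0.00301 with the culture as a block). The Saa2 response differed by 0.15 (SE 0.85, adjusted p = 0.956), and by -1.90 under normexp. Between selected and BRAF organoids none was called, against 0% of all genes, and 4 members had an unadjusted limma p under 0.05. With lines of one number as a block Saa2 was (adjusted p = 0.0494). With the culture as a block Saa1 (-2.09, adjusted p = 0.0134), Saa2 (-4.60, adjusted p = 0.00503) and Lypd8 (-3.99, adjusted p = 0.0134) were.

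Across the 18 arrays, which include both media of each culture, the members fell into sets that moved together, given as a description. Pearson's r was 0.939 between Saa1 and Saa2, 0.960 between Saa2 and Saa3, 0.970 between Saa2 and Lypd8, and 0.883 between Reg3b and Reg3g. Such values pool the groups, so differences between group means enter them. Saa2 and Saa3 were at background in selected organoids, and Reg3g was well above background on 5 of 18 arrays, among them both of BRAF line 3. Nos2 ran opposite to Pigr (-0.798) and Saa3 (-0.780), and Lcn2 had no r beyond -0.353 with any member. The 60-base probes of Saa1, Saa2 and Saa3 share no run of bases longer than 6, and each lists transcripts of its own gene only. The genes most like Lypd8 were Guca2a (0.979), which encodes guanylin, Ptprh (0.979) and Myo1a (0.978), a brush-border myosin. Those most like Saa2 were Btnl5-ps (0.984), Hsd3b3 (0.983) and Guca2a (0.981). Slc13a1, a sulfate carrier, was most like Saa1 (0.978), Cyp4f40 most like Saa3 (0.973) and Tfpi2 most like Retnlb (0.930). Retnlb was well above background on 3 of 18 arrays, all of EV organoids, so this last r is given no weight (Spearman's rho 0.742).

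Differentiation markers moved in the same comparisons as these genes. Of 9 colonocyte markers on the array, 8 rose in base medium in EV organoids, where 23.4% of all genes rose. In selected against EV organoids in base medium 8 fell, where 23.2% of all genes fell. Their summed linear signal, in multiples of the 75th percentile, ranged over 1232 to 2454 in EV, 166 to 470 in BRAF and 22.6 to 27.5 in selected organoids in base medium. Of 9 goblet cell markers 7 fell in selected against EV organoids in base medium, with sums of 244 to 386 in EV, 10.6 to 45.6 in BRAF and 1.24 to 23.3 in selected organoids. Guca2a, the colonocyte marker named above, read 9.14 ± 0.27 (SD, n = 3) in EV, 5.51 ± 0.88 in BRAF and -3.49 ± 0.35 in selected organoids in base medium. The goblet peptide gene Tff3 was well above background on none of the 6 selected arrays. The part of such shifts in the levels of the 10 genes was not tested.

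Other genes of the same defences are read against the share of all genes called. Of 15 tested acute phase and complement genes, 3 fell and 2 rose in BRAF against EV organoids in base medium, where 31% of all genes were called. In selected against EV organoids 2 fell and 1 rose, where 48.2% of all genes were called. The first count is near the share of all genes (13.1% lower, 17.9% higher) and the second is below it (23.2% lower, 25% higher). Cfb, complement factor B, fell by 8.65 in selected organoids in base medium (adjusted p = 1.83e-06). It was well above background on 2 of 3 selected arrays there, so the size of that fall lies near the background. In BRAF organoids in base medium Cfb fell by 2.48 (adjusted p = 0.0267). That call was lost without some arrays or cultures, with adjusted p up to 0.118 on leaving out 1 array. The metalloreductase gene Steap4 was not well above background in BRAF or selected organoids in base medium. It was at least 21.0-fold below EV in BRAF organoids (adjusted p = 0.00173), a call lost with normexp. In selected organoids it was at least 19.6-fold below EV (adjusted p = 0.000704). Of 21 other antimicrobial genes tested, 6 fell and 2 rose in selected against EV organoids in base medium. That is fewer in all than the 48.2% share of all genes (23.2% lower, 25% higher). In ENSW medium 7 fell and 2 rose, where 13.8% of all genes were called (5.14% lower, 8.71% higher). Over the other settings 4 to 7 fell and 1 to 3 rose there. Zg16, a goblet lectin that aggregates Gram-positive bacteria, fell by 12.68 in base medium (adjusted p = 3.87e-07). It was well above background on 1 of 3 selected arrays in that medium. In ENSW medium the antiprotease gene Slpi rose by 4.32 (adjusted p = 0.00598).

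Receptors and transcription factors upstream of these genes were also read. Of 29 cytokine and microbe receptor genes, 10 rose and 1 fell in base medium in EV organoids. In total that is near the 42.1% of all genes called. By direction more rose and fewer fell than among all genes (23.4% higher, 18.8% lower). The genes that rose included Tlr4 (1.34, adjusted p = 0.000202) and Ifngr2 (1.35, adjusted p = 0.000687). In selected against EV organoids in base medium 11 fell and 3 rose, in total again near the share of all genes (48.2%). By direction more fell and fewer rose than among all genes (23.2% lower, 25% higher). Il22ra1, a subunit of the interleukin-22 receptor, fell by 3.87 (adjusted p = 6.7e-06), and Il6ra rose by 3.19 (adjusted p = 0.00495). Of 27 genes for NF-kB, STAT and C/EBP factors and their regulators, 18 fell and 2 rose in the same comparison, where 23.2% of all genes were called lower and 25% higher. Irf1 fell by 3.40 (adjusted p = 1.23e-05), while Cebpb rose by 1.98 (adjusted p = 4.51e-05). Cebpb also rose in BRAF against EV organoids in base medium, by 1.08 (adjusted p = 0.00902).

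Cytokine genes themselves were mostly dim. Of 18 on the array, 9 passed the filter, and Il6, Il17a, Ifng, Il23a and Tslp were well above background on no array. Il33, an alarmin, rose by 2.87 in BRAF against EV organoids in base medium (adjusted p = 0.000211) and fell by 1.75 in base against ENSW medium in EV organoids (adjusted p = 0.00287).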

How the data were processed

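Total RNA of 20 cultures and media was labelled with Cy3 and hybridised to single-colour Agilent arrays. The deposited scanner files hold fluorescence intensity per spot, extracted with Feature Extraction 10.7.3.1, with probe coordinates on mm9, per the file headers. A log2 table deposited beside them has columns of equal distribution that rank probes as the median signal does. Limma is named in the submitters' processing notes. How that table was scaled is not given in the sources used here.

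Controls apart, 43020 spots per array read 39429 probes. Outlier spots (48 in all) were left out, and 0 were saturated. Log2 of the processed signal was centred on the 75th percentile per array. Replicate spots were averaged, and a probe was kept where 3 or more of the 18 arrays read it well above background (26863 probes). The brightest probe on the gene's own chromosome stood for each gene (21456 genes). That chromosome rule was adopted after the Pigr probes were seen and changed the probe of 11 genes. Probes were named through RefSeq accessions (26581), symbols (2597) or older symbols (492), and 9759 kept the name in the files.

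Group means were fitted with limma 3.58.1 (R 4.3.3) to the 18 arrays of 6 groups, with 12 residual degrees of freedom. A call means a p-value under 0.05 after Benjamini-Hochberg adjustment across the 21456 genes, in 12 contrasts, 3 of which test whether a response to the medium differs between organoid types. SE is that of the fit. The labels do not say whether lines came from separate animals, so p-values measure only the spread between these lines. The number of arrays limits the precision. The scripts were tested on simulated data. Tables used pandas 2.3.3 and numpy 2.4.6 under Python 3.11.15, and plots matplotlib 3.10.9.

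The members, the other gene lists and the tests were chosen with earlier results of these data known. Members were always named. For each member the 3 genes with the highest Pearson correlation, and for each list and contrast up to 2 called genes per direction with the smallest adjusted p, could be named, and part of them are printed. Both arrays of a culture deviated together from their group means (9 of 9 pairs, r = 0.42 to 0.87), so results on the media are also given with the culture as a random block where that changes a call. Selected and BRAF lines of one number also deviated together (12 of 12 pairs, r = 0.10 to 0.37, all over 0.1), against 5 of 24 pairs of EV with another type. The fit with those lines as a block is given where it changes a call. The labels do not say what a line number shares. The alternatives were normexp background correction (offset 50), quantile normalization, the deposited values, no filter on dim probes, the mean of a gene's probes, blocks for line, culture and slide, and leaving out each array.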

Additional observations from a re-analysis of the deposited data

Results flagged for a closer look

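The response of Saa1 to base medium differed between selected and EV organoids by -4.09 on the log2 scale (limma adjusted p = 0.000407), with a rise in 3 of 3 EV cultures and changes of 0.18, -0.44 and -0.014 in the selected ones. That of Saa2 differed by -4.45 (adjusted p = 0.00224), where all 6 selected arrays were not well above background.

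The wild-type arrays entered no comparison. Reg3g read -3.86 on the wild-type array in base medium, above the highest of the 3 EV arrays (-4.32). Nos2 read -1.29 on the wild-type array in ENSW medium, above the highest EV array (-1.34). Each rests on 1 array.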

How the results depend on the processing

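Of the 41 differences of single genes that were called, none changed sign in any of the 38 other settings (slide, and the lines of selected and BRAF organoids, could not be fitted as fixed blocks to comparisons with EV), 34 kept their call in every setting that kept all arrays, and 26 in every setting. Counts of called genes moved by over 1.5 times in the comparisons with few calls. For selected against BRAF in ENSW medium the count of 2 became 0 with normexp, 1 with the deposited values and 1 with slide as a fixed block. It ranged from 0 to 2 when an array or a culture was left out, with 0 without any 1 selected ENSW array. For the response of BRAF against EV organoids the count of 0 became 1, always Saa1, with normexp, the deposited values, and line, selected and BRAF lines, culture or slide as a block, and it ranged from 0 to 1 on leaving out arrays or cultures. For the response of selected against EV organoids the count of 2 became 4 with normexp, the deposited values and slide as a fixed block, and 5 with the culture as a block. Between selected and BRAF organoids the count of 0 became 3 with the culture and 1 with slide or with selected and BRAF lines as a fixed block, and ranged from 0 to 1 on leaving out. On leaving out arrays or cultures, the count of 7 for selected against EV in ENSW medium ranged from 4 to 8 and was 4 without EV line 1, that of 4 for the media in EV organoids from 2 to 5 and was 2 without EV line 3, and that of 3 for the media in BRAF organoids from 0 to 3 (0 without BRAF line 2). With the culture as a block the last was 4. The base-medium difference of Reg3b between BRAF and EV, not called, was 0.45 without BRAF line 2 and -4.72 without both arrays of BRAF line 3. For BRAF against EV in ENSW medium the count of 6 ranged from 4 to 7, with 4 without EV line 1. The causes were not tested.

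With the line number as a replicate block, the count for the response of BRAF against EV organoids was 1 in place of 0, and no other count moved by over 1.5 times. With selected and BRAF lines of one number as a replicate block, the counts of 2 and 4 for selected against BRAF did not move. Retnlb, not called between media in EV organoids (-1.86), was called with that block (adjusted p = 0.0142), and its difference ran from -3.90 to 0.069 on leaving out 1 array.

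The size of 16 called differences moved by over 1.5 times with normexp and of 9 with the deposited values, mostly for Saa2, Saa3 and other dim probes. Another 16 differences were called in some other setting only, and of 63 never called, 41 had another sign in some setting. Arrays scaled to the 75th percentile kept a median shift of 0.19 over all genes between media in EV organoids. Leaving out both arrays of a culture, the block of selected and BRAF lines and taking the brightest probe on any chromosome were chosen after seeing the data.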
